A study of Ramazzottius varieornatus with 48 samples.

Results

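Within the UVC time courses of the tardigrade Ramazzottius varieornatus, a set of 100 genes was followed whose transcripts were up-regulated at 9 and 12 h after exposure and were no longer above a set limit over the non-exposed level at 72 h. A gene was taken when it had a single transcript ID, a mean of at least 10 TPM over the 48 libraries (TPM is a share of the library already divided by transcript length), and a difference from non-exposed animals over 0.5 at Short 9 h, Short 12 h and Long 12 h and under 0.5 at Long 72 h. The difference was taken between group means of log2(TPM + 1), within the same time course. Of 13920 genes in the table, 8369 had 1 transcript and the required abundance, 772 were over the limit at all 3 time points, and 337 of these were under it at 72 h. The 100 with the highest value of the lowest of the 3 rises were kept, after 4 genes (g2185.t1, g13857.t1, g7792.t1 and g422.t1) had been set aside by name, of which 3 met the differences. The values of the non-exposed, 9, 12 and 72 h libraries therefore chose the members, apart from the abundance limit, which used all 48, and they are given below as a description without a test.

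All animals were of the strain YOKOZUNA-1 and were frozen whole, 30 per library, with 3 libraries in each of 16 groups. Animals of the Short course were sampled hourly from 1 to 6 h after UVC and again at 9 h and 12 h, and those of the Long course at 12 h, 18 h, 24 h, 36 h, 48 h and finally 72 h, each beside non-exposed animals. The lamp gave an average of 0.54 mW/cm2 per the labels (the study's methods give slightly higher intensities, which differ between the courses), with the animals hydrated but freed of surface water, and they were kept in the dark afterwards. Controls were collected at the start only, Chlorella food was added once during the Long course, and the libraries of each condition were picked by RNA quality. The time spent off the culture plate, feeding and the UVC response consequently cannot be told apart in a comparison between time points. In whole animals, fewer cells of a type and less RNA per cell cannot be told apart either.

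UVC is absorbed by DNA and joins neighbouring pyrimidines, a lesion that photolyase reverses with the energy of visible light and that other organisms also cut out in the dark. When a replication or transcription complex meets such a lesion, strand breaks can follow, and poly(ADP-ribose) polymerases mark these breaks while the sliding clamp PCNA serves the synthesis that fills repaired gaps. UVC also oxidises proteins and lipids, and damaged proteins are cleared through ubiquitin ligases, the proteasome and autophagy. Names in the text are Swiss-Prot matches from the study's annotation, which covers only transcripts that it called higher in these same libraries. A named member is therefore no independent evidence of a rise. Of the 100 members, 46 carried a protein name, 24 were listed there without a match, and 30 were not in it. The annotation named 561 transcripts in all, so members were 46 of 561 among the named ones.

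Some libraries stood apart before any result is read. Among 7238 transcripts with a mean of at least 20 TPM, replicates 2 and 3 of Long 24 h listed 29 and 30 at 0, whereas replicate 1 of that group listed 792 at 0, with 11 of the members at 0. Short 4 h replicate 3 (386 transcripts at 0) and Short 5 h replicate 2 (297) were the next in this respect. Long 72 h replicate 3 was unusual in another way, since its mean over the members was 5.85 on the log2(TPM + 1) scale, against 4.81 and 4.87 in replicates 1 and 2. Marker lists for muscle (8 transcripts), digestive enzymes (18) and yolk (1) shared no transcript with the members. They were used as a rough check of tissue content, although the study had picked these transcripts too as higher in these libraries.

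The level of the members rose unevenly over the Short course and fell back over the Long course. In the non-exposed Short libraries the mean log2(TPM + 1) over the 100 members was 5.21, 4.65 and 5.00. At Short 9 h it was 6.59, 6.65 and 6.56, and at Short 12 h it was 6.50, 6.54 and 6.41. The Long course gave 5.30, 5.20 and 5.36 in non-exposed animals and 6.57, 6.47 and 6.62 at 12 h. The rule required a rise at 12 h in both courses, so the nearness of these levels is not a result on the exposures. The median difference of the members from non-exposed was 1.37 at Short 12 h and 1.17 at Long 12 h. At 18 h the libraries spread from 6.08 to 6.67, and at 24 h they read 4.62, 6.14 and 6.22. They were at 5.72, 5.23 and 5.81 at 36 h and at 5.41, 5.24 and 5.67 at 48 h. At both of these times replicates 1 and 3 were still above every Long non-exposed library.

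**Figure D1:**
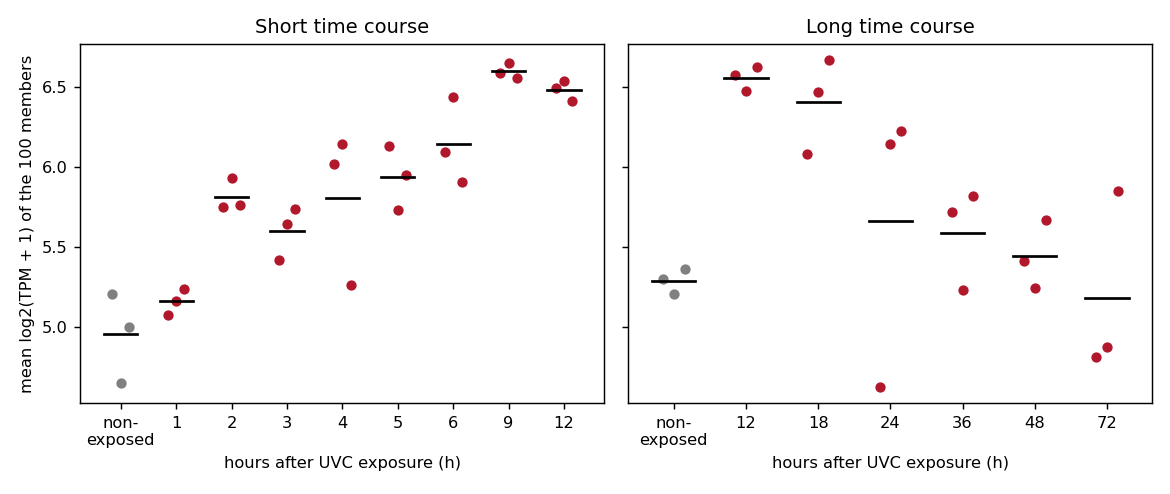
Mean log2(TPM + 1) over the 100 members (y axis) for each library by hours after UVC exposure in the Short (left) and Long (right) time courses. Points are libraries, black lines are means of 3, grey points are non-exposed animals; the level rises to between 6.41 and 6.65 at Short 9 and 12 h, and at Long 72 h replicate 3 (5.85) lies apart from replicates 1 and 2 (4.81 and 4.87).

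At 1 h after exposure the median difference of the members from non-exposed was only 0.15, with 29 members over 0.5 (15.6% of all 12088 transcripts tested). It was 0.75 at 2 h, 0.53 at 3 h, 0.86 at 4 h, 0.95 at 5 h and 1.11 at 6 h, when 91 members were over 0.5 (21.8% of all). The 2 h value was above that at 3 h, so the climb was not even. At 9 h the median was 1.44 and at 12 h 1.37, where all 100 members were over the limit by construction (29.1% and 24.8% of all). From which hour a member stayed over 0.5 until 12 h varied widely: 13 members did so from 1 h, 19 from 2 h, 27 from 4 h, 16 from 5 h, 16 from 6 h and 9 from 9 h only. The highest Short value was at 9 h for 44 members, at 12 h for 33, and earlier for the other 23.

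In the Long course the median difference was 1.17 at 12 h and 1.10 at 18 h, when 90 members were still over 0.5 (31.9% of all). It dropped to 0.55 at 24 h, with 53 members over 0.5 (25.2% of all), but without replicate 1 of that time point it was 0.83 with 82 members. At 36 h it was 0.29 with 38 members over the limit (29.6% of all), and at 48 h 0.17 with 20 (30.3% of all). Members went under 0.5 for good at different times, 8 from 18 h, 22 from 24 h, 27 from 36 h, 23 from 48 h and 20 only at 72 h. At 72 h the median was 0.04 with 52 members still above 0, and 23 members were more than 0.5 below non-exposed animals (37.3% of all). This end point was not shared by the 3 libraries: in replicates 1 and 2 the medians were -0.38 and -0.26, with 6 and 7 members over 0.5, whereas in replicate 3 the median was 0.59 with 57 members over 0.5. With replicate 3 left out, 98 of the 100 still met the differences, but 378 genes then did so and the rule took 77 of the 100 again. Without replicate 1, 82 members still met the differences, and without replicate 2 also 82.

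**Figure D2:**
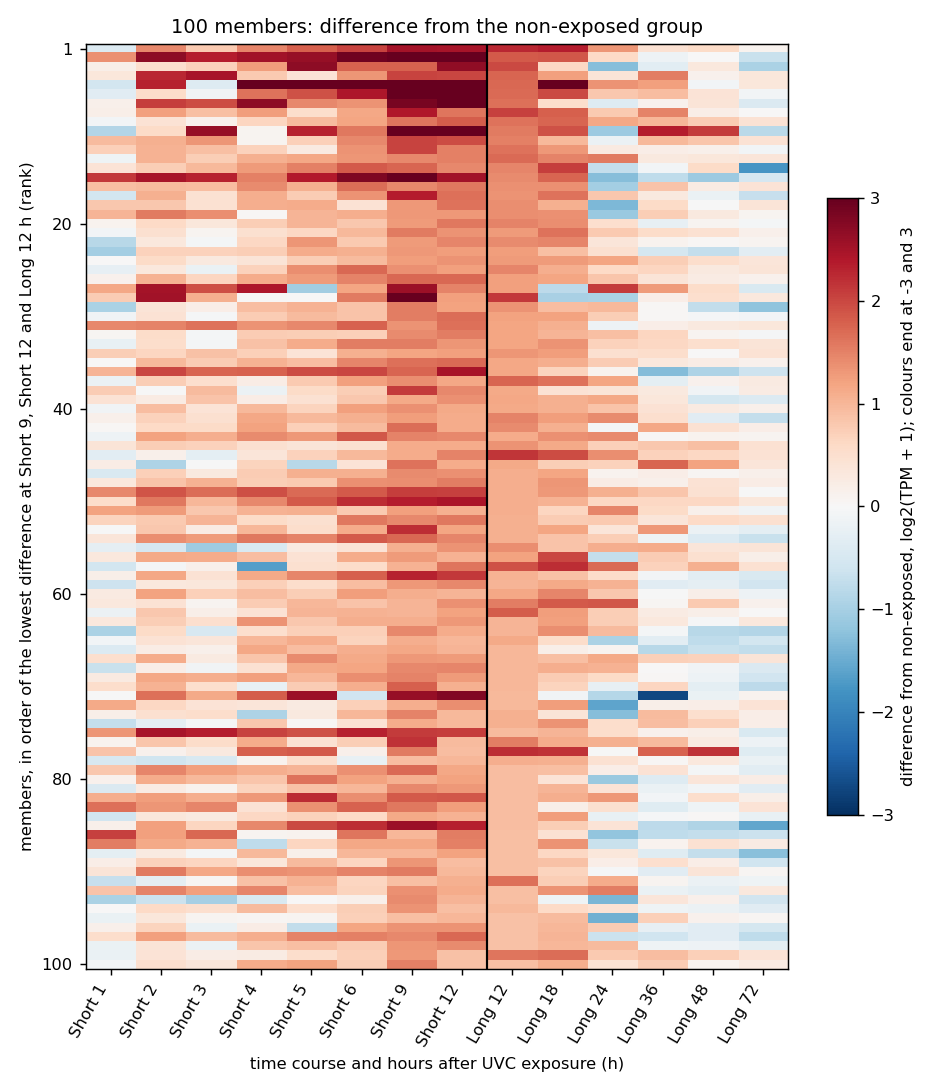
Difference from the non-exposed group of the same time course for each of the 100 members (rows, by rank of their lowest rise) at each time point (columns, hours after UVC exposure), on the log2(TPM + 1) scale; red is higher, blue lower. The columns at 9 and 12 h are red for every member because the rule took them so, while the earlier Short columns and the Long columns from 24 h on differ between members.

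The separation of single libraries followed the same order. At Short 9 h all 3 libraries lay above all 3 non-exposed libraries for 89 members (15.2% of all tested), at Short 12 h for 90 (11.9%), at Long 12 h for 61 (8.22%), at Long 18 h for 54 (10.2%) and at Long 72 h for 0 (10.3%). All of these counts rest on libraries the rule used, at least through the non-exposed group, and are a description only. The Long non-exposed libraries, against which the 12 h count of 61 was made, had 163 to 255 abundant transcripts at 0 and the Short ones 18 to 145, and the part of this in the counts was not tested. Between them, the non-exposed libraries listed 12 members at 0, and 14 members had a mean under 10 TPM in a non-exposed group, 0 of which had a name.

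The member with the highest minimum rise was g5548.t1, matched to SelO, a mitochondrial protein that attaches AMP to other proteins and is tied to redox control. Its level was 69.1, 88.7 and 60.5 TPM in non-exposed Short animals, 486, 411 and 351 TPM at 9 h and 445, 407 and 356 TPM at 12 h. Long values were 64.8, 104 and 80.7 TPM without exposure, 433, 327 and 429.5 TPM at 12 h and 49.2, 67.0 and 210.0 TPM at 72 h. Every library at 9 and 12 h was above every non-exposed library of its course, and at 72 h replicate 3 alone was above them. Differences from non-exposed were 2.50, 2.47 and 2.25 at the 3 times that chose it.

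The member after it, g7371.t1, had no Swiss-Prot match. It stood at 92.6, 98.7 and 91.7 TPM in non-exposed Short animals, 873, 894 and 725 TPM at 9 h and 762, 916 and 812 TPM at 12 h. Its Long values were 147, 121 and 165 TPM without exposure, 537, 377 and 677 TPM at 12 h and 53.5, 56.8 and 240.0 TPM at 72 h. It was already well up at 1 to 3 h, 197 to 635 TPM (median 497), and stayed over the limit of 0.5 from 1 h on.

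Of the 10 highest ranks, 4 belonged to members with low and scattered values, g10514.t1, g1422.t1, g4744.t1 and g1546.t1, none of which had a name. The level of g1546.t1, for example, was 179, 0 and 0 TPM in Long animals without exposure, and at 12 h it was 20.9, 0 and 212 TPM, where the groups overlapped. For g10514.t1 the Long 12 h libraries read 54.9, 145 and 0 TPM. Ranks came from group means on the log scale, in which a library at 0 weighs heavily. A 0 in an exposed group, as for g10514.t1, lowers the difference, and a 0 in a non-exposed group raises it. The part of this in the 4 ranks was not tested.

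A steadier case among the low members was g1401.t1, which was also unnamed. It was at 2.57, 0.203 and 0 TPM in non-exposed Short animals and at 42.8, 37.5 and 45.2 TPM at 9 h, with no overlap. In the Long course the non-exposed values of 2.18, 18.8 and 0 TPM overlapped those at 12 h, 38.0, 1.02 and 27.2 TPM.

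The named members of the 10 highest ranks were completed by g7793.t1, described with the repair genes, g5596.t1 and g5408.t1. Matched to PLEKHG5, g5596.t1 had 97.5, 61.0 and 62.1 TPM in non-exposed Short animals, 354, 461 and 353 TPM at 9 h and 183, 309 and 192 TPM at 12 h. All 9 h libraries were above all 12 h libraries. In the Long course it was 525, 426 and 348 TPM at 12 h against 121, 94.0 and 92.8 TPM in non-exposed animals. The glutaryl-CoA dehydrogenase match g5408.t1, an enzyme of lysine and tryptophan breakdown in mitochondria, had 64.0, 58.5 and 75.4 TPM without exposure, 222, 206 and 178 TPM at 9 h and 296, 181 and 243 TPM at 12 h. Neither overlapped between exposed and non-exposed libraries at these times.

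The limits of the rule cut through a continuous range. On the lowest rise, g1289.t1 (0.876) and g9108.t1 (0.874) were the last inside, and g1792.t1 (0.873) and g1086.t1 (0.871) the nearest outside. On the 72 h limit, g3331.t1 (0.49) and g5508.t1 (0.47) were the members closest to it, and g9536.t1 (0.50) and g1384.t1 (0.51) lay just beyond. Which genes were taken also rested on the Long non-exposed libraries: 56 of the 100 were taken again without replicate 3 of that group and 65 without replicate 2. In these cases 73 and 80 of the 100 still met the differences.

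Whether the members also rose and fell between libraries whose differences had no share in choosing them was asked with a pair of comparisons. The rise was tested as Short 4, 5 and 6 h against Short 1, 2 and 3 h (9 libraries against 9), and the fall as Long 36 and 48 h against Long 18 and 24 h (6 against 6). Both were fitted with limma on log2(TPM + 1) over all 12088 transcripts with a mean of at least 1 TPM, with Benjamini-Hochberg adjustment. A call required an adjusted p below 0.05 together with a log2 difference beyond 1 in size. These libraries entered the rule through the abundance limit only, and all 100 members also had a mean of at least 10 TPM over the 18 libraries outside both comparisons. They belong to the same exposures, so neighbouring time points are not a separate experiment.

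From 1-3 h to 4-6 h, 11 members rose (1.8% of all transcripts were called higher) and 0 fell (1.74% were called lower). At adjusted p alone, 46 members rose (13.2% of all) and 0 fell (4.24%). The share of all includes transcripts scarcer than the members, which had a mean of at least 10 TPM. In a fit of transcripts with a mean of at least 5 TPM, 17.4% passed as higher, with 46 members again. The median log2 difference was 0.52 over the members and 0.09 over all transcripts, and 77 members were above 0 (55.4% of all). Scaling the libraries to a common median or by quantiles brought the called members to 6 and 4, those past the adjusted p alone to 35 (6.26% of all) and 24 (4.33% of all), and the share of higher ones among all called transcripts from 50.9% to 22.9% and 35.1%. Among the 100 genes with the strongest rise at 9 and 12 h that was held over 0.5 at 72 h, 4 were called higher and 2 lower with a median of -0.09; the difference between these 2 sets was not tested.

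From 18-24 h to 36-48 h, 19 members fell (2.36% of all transcripts were called lower) and 0 rose (1.49% were called higher). At adjusted p alone, 23 members fell (4.15% of all) and 0 rose (2.37%). In the fit of transcripts with a mean of at least 5 TPM, 5.72% passed as lower, with 23 members again. The median log2 difference was -0.59 over the members and -0.09 over all transcripts, and 82 members were below 0 (54.3% of all). The count depended on single libraries, with 5 members called without Long 36 h replicate 2, 6 without 48 h replicate 2, 10 without 48 h replicate 1, 11 without 18 h replicate 3 and 12 without 36 h replicate 1, but 22 without 24 h replicate 1. With quantile normalization 7 members were called, and past the adjusted p alone were 17 members (1.32% of all) with median scaling and 11 (1.69% of all) with quantiles. In the fit with quantiles the share of higher ones among all called transcripts went from 38.7% to 65.1%, or to 64.5% with median scaling. In the 100 genes whose rise was held, 2 were called lower and 2 higher with a median of 0.10, side by side and not tested.

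Tissue markers, themselves picked by the study as higher in these libraries, moved over the same Long interval. The summed level of the 8 muscle transcripts was 274 to 1429.9 TPM (median 1127) at 18-24 h and 1500.3 to 2048 TPM (median 1825) at 36-48 h, without overlap, and 1 of the 8 was called higher. Digestive enzymes summed to 3925 to 11520.1 TPM at 18-24 h and 10261.5 to 12018 TPM at 36-48 h, with 4 of 18 called higher and 1 lower. The yolk transcript was called higher as well, from 363 to 4137 TPM before and from 648 to 7920 TPM after. At 18-24 h the values of 274, 3925 and 4137 TPM all came from Long 24 h replicate 1, which had 792 abundant transcripts at 0. Without that library the lowest sums were 1030 TPM for muscle and 6736 TPM for digestive enzymes, and the highest yolk value was 1313 TPM. In the Short comparison 0 transcripts of these lists were called, with muscle sums of 749 to 1403 TPM at 1-3 h and 620.0 to 1054 TPM at 4-6 h. Their part in either result was not tested.

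**Figure D3:**
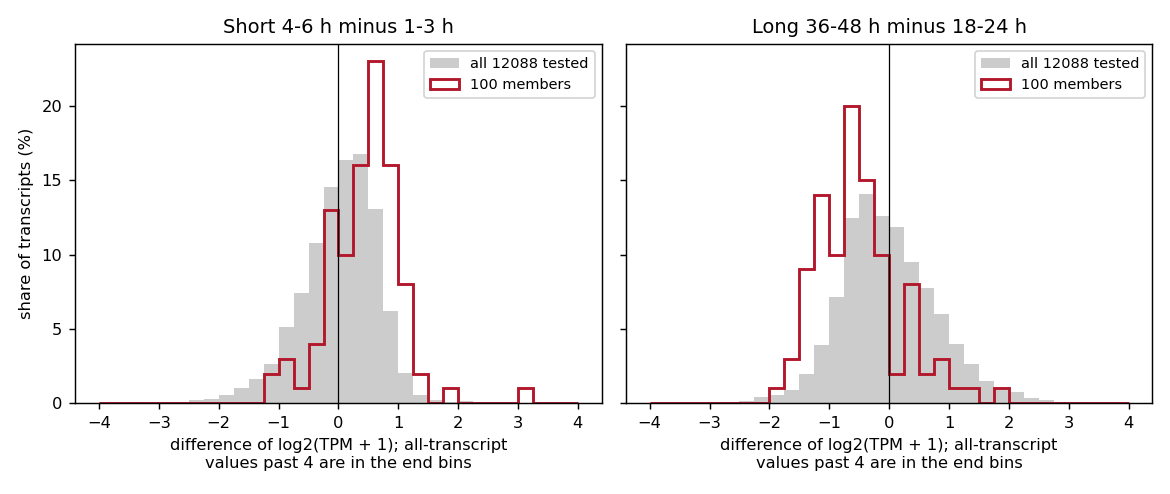
Distribution of the log2(TPM + 1) difference for the 100 members (red outline) and all 12088 tested transcripts (grey), as a share of transcripts in percent, for Short 4-6 h minus 1-3 h (left) and Long 36-48 h minus 18-24 h (right). The members lie to the right of all transcripts in the rise (medians 0.52 and 0.09) and to the left in the fall (medians -0.59 and -0.09), with a broad overlap in both.

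Past the adjusted p in both comparisons were 17 members, in either 52 and in neither 48. Only g5548.t1 (SelO), g312.t1 (macro-H2A.1), g11467.t1 (NF-X1) and the unnamed g9523.t1 were called in both, of which g9523.t1 and g11467.t1 were picked for the text with their values known. The SelO match g5548.t1 went from 42.0 to 244 TPM (median 122) at 1-3 h to 107 to 361 TPM (median 265) at 4-6 h, with 6 of 9 later libraries above all earlier ones. The log2 difference was 1.16 (SE 0.172, adjusted p = 0.000357) in limma, and 1.16 became 0.99 with quantile normalization, which is under the fold limit. It fell from 118 to 476 TPM (median 340.1) at 18-24 h to 75.7 to 167 TPM (median 121) at 36-48 h, a difference of -1.33 (SE 0.310, adjusted p = 0.0191), and that call was lost without Long 36 h replicate 2 or 48 h replicate 2. The unnamed g9523.t1 changed by 1.12 (SE 0.162, adjusted p = 0.000325) in the rise and -1.12 (SE 0.295, adjusted p = 0.0326) in the fall. The rise of g9523.t1 was not called with median scaling (0.99) or quantiles (0.90), and its fall not with quantiles (-0.85) or in 8 of 12 fits that left out a library.

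NF-X1, in human a zinc finger protein that represses transcription, was matched by g11467.t1. Its level went from 13.9 to 80.4 TPM (median 31.0) at 1-3 h to 51.7 to 91.3 TPM (median 60.9) at 4-6 h, a log2 difference of 1.06 (SE 0.180, adjusted p = 0.000918). Later it fell from 81.1 to 127 TPM (median 93.5) to 17.2 to 63.2 TPM (median 42.8), a difference of -1.30 (SE 0.311, adjusted p = 0.0217), and the groups did not overlap. Its rise was not called with a pseudocount of 5 (0.96), median scaling (0.93), quantiles (0.77) or in 3 of 18 fits that left out a library, and its fall not with quantiles (-0.98) or in 3 of 12 such fits. At 72 h the libraries read 12.6, 14.95 and 48.5 TPM, against 44.0, 59.8 and 47.9 TPM without exposure, so that replicates 1 and 2 lay below all non-exposed libraries.

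DNA repair and replication genes gave 5 of their 16 listed transcripts to the members. Over all named transcripts the share was 46 of 561, and this is the share to set beside each list below. Whether any list held more members than that was not tested. Of the 16, 5 were called higher from 1-3 h to 4-6 h and 12 passed the adjusted p, with a median log2 difference of 0.83, and 7 were called lower from 18-24 h to 36-48 h and 8 passed, with a median of -1.06. Of all transcripts, 1.8% were called higher and 13.2% passed in the rise, and 2.36% were called lower and 4.15% passed in the fall. In the opposite direction 0 passed the adjusted p in either comparison. All 16 were picked by the study as higher in these libraries, which bears on these counts. The same holds for every list below that is set beside the share of all transcripts. Among the 5 members, 2 were called in the rise and 3 in the fall.

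Poly(ADP-ribose) polymerase 2-A was the match of g7793.t1, an enzyme that builds ADP-ribose chains at broken DNA. It was at 46.5, 72.2 and 15.03 TPM in non-exposed Short animals, 556, 456 and 352 TPM at 9 h and 658, 275 and 467 TPM at 12 h. Long animals had 75.9, 111 and 84.8 TPM without exposure and 290.0, 357 and 245 TPM at 12 h. At 72 h it was at 88.7 and 46.5 TPM in replicates 1 and 2, while replicate 3 was above all non-exposed libraries. The Short differences of 3.55 at 9 h and 3.52 at 12 h were wider than the Long one of 1.70 at 12 h. The non-exposed level was lower in the Short libraries. Transcripts of g7793.t1 were low to 3 h, at 24.3 to 80.3 TPM (median 35.1). They were then at 74.6 to 270.4 TPM (median 163) at 4-6 h, where 8 of 9 libraries exceeded all earlier ones. That rise was 1.95 (SE 0.267, adjusted p = 0.000244) in limma, and the later change was -0.73 (SE 0.339, adjusted p = 0.213), short of the threshold. Its gene ID lies next to that of g7792.t1, matched to PARP3, and reads shared by similar copies could be split between them in the quantification.

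Macro-H2A.1, a histone variant whose macro domain can bind ADP-ribose in mammals, was matched by g312.t1. The level was 117, 59.9 and 70.8 TPM in non-exposed Short animals, 462, 488 and 483 TPM at 9 h and 498, 339 and 388 TPM at 12 h. It climbed from 68.4 to 201 TPM (median 141) at 1-3 h to 148 to 406 TPM (median 316) at 4-6 h, a difference of 1.21 (SE 0.157, adjusted p = 0.000147). Between 18-24 h and 36-48 h it fell from 154 to 284 TPM (median 214) to 47.4 to 111 TPM (median 77.5) with no overlap, a difference of -1.42 (SE 0.333, adjusted p = 0.0195), a call that was lost without Long 36 h replicate 2. At 72 h it was 30.8, 27.1 and 126 TPM against 114, 145 and 171 TPM without exposure, a difference of -1.56, carried by replicates 1 and 2.

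The photolyase match was g7472.t1. It read 24.6, 36.8 and 22.0 TPM in non-exposed Short animals and 88.8, 101 and 86.9 TPM at 9 h, and 88.7, 102 and 75.4 TPM at Long 12 h against 57.4, 65.8 and 18.8 TPM. From 1-3 h to 4-6 h it moved by 0.62 (SE 0.135, adjusted p = 0.00475), past the adjusted p but under the fold limit. In the fall its libraries went from 58.1 to 85.8 TPM (median 74.9) to 24.4 to 44.6 TPM (median 35.6) without overlap, a difference of -1.07 (SE 0.285, adjusted p = 0.0344). That call was narrow, being lost in 9 of the 12 fits that left out a library, in which the difference stayed between -1.18 and -0.97, and also with a pseudocount of 5 (-0.98), median scaling (-0.97), quantiles (-0.76) or a replicate block (-1.07). The animals were kept in the dark after exposure.

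PCNA, the clamp that holds polymerases on DNA, was matched by g11126.t1, with 42.0, 22.8 and 22.4 TPM in non-exposed Short animals, 92.2, 92.4 and 58.6 TPM at 9 h and 73.9, 87.6 and 71.7 TPM at 12 h. Its change was 0.81 (SE 0.185, adjusted p = 0.00609) in the rise and -1.32 (SE 0.318, adjusted p = 0.0218) in the fall, from 42.2 to 108 TPM (median 77.3) to 19.4 to 54.0 TPM (median 27.5). The fall was not called without Long 18 h replicate 2, 36 h replicate 2 or 48 h replicate 2, nor with median scaling (-1.23) or quantiles (-1.07).

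Among the 11 repair transcripts that were not members, g13857.t1 (XRCC5, a Ku subunit that caps DNA ends), g131.t1 (the 32 kDa subunit of replication protein A) and g7792.t1 (PARP3) were the most abundant. In the rise they changed by 1.73 (SE 0.165, adjusted p = 3.57e-06), 0.44 (SE 0.110, adjusted p = 0.00978) and 1.56 (SE 0.320, adjusted p = 0.00318), respectively. In the fall the values were -1.20 (SE 0.302, adjusted p = 0.0262), -0.42 (SE 0.216, adjusted p = 0.27) and -1.06 (SE 0.311, adjusted p = 0.0509). Of these, XRCC5 and PARP3 were set aside by name from the members, and replication protein A passed the adjusted p in the rise only. As for the UV-damage endonuclease g12984.t1, an enzyme that nicks DNA beside UV lesions in fission yeast, it changed by 0.91 (SE 0.177, adjusted p = 0.0023) and -1.38 (SE 0.305, adjusted p = 0.0144), and was named after its values were seen. The fall was not called with quantiles for g13857.t1 (-1.01) or g12984.t1 (-1.10), and for g13857.t1 it was also lost in 5 of 12 fits that left out a library.

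**Figure D4:**
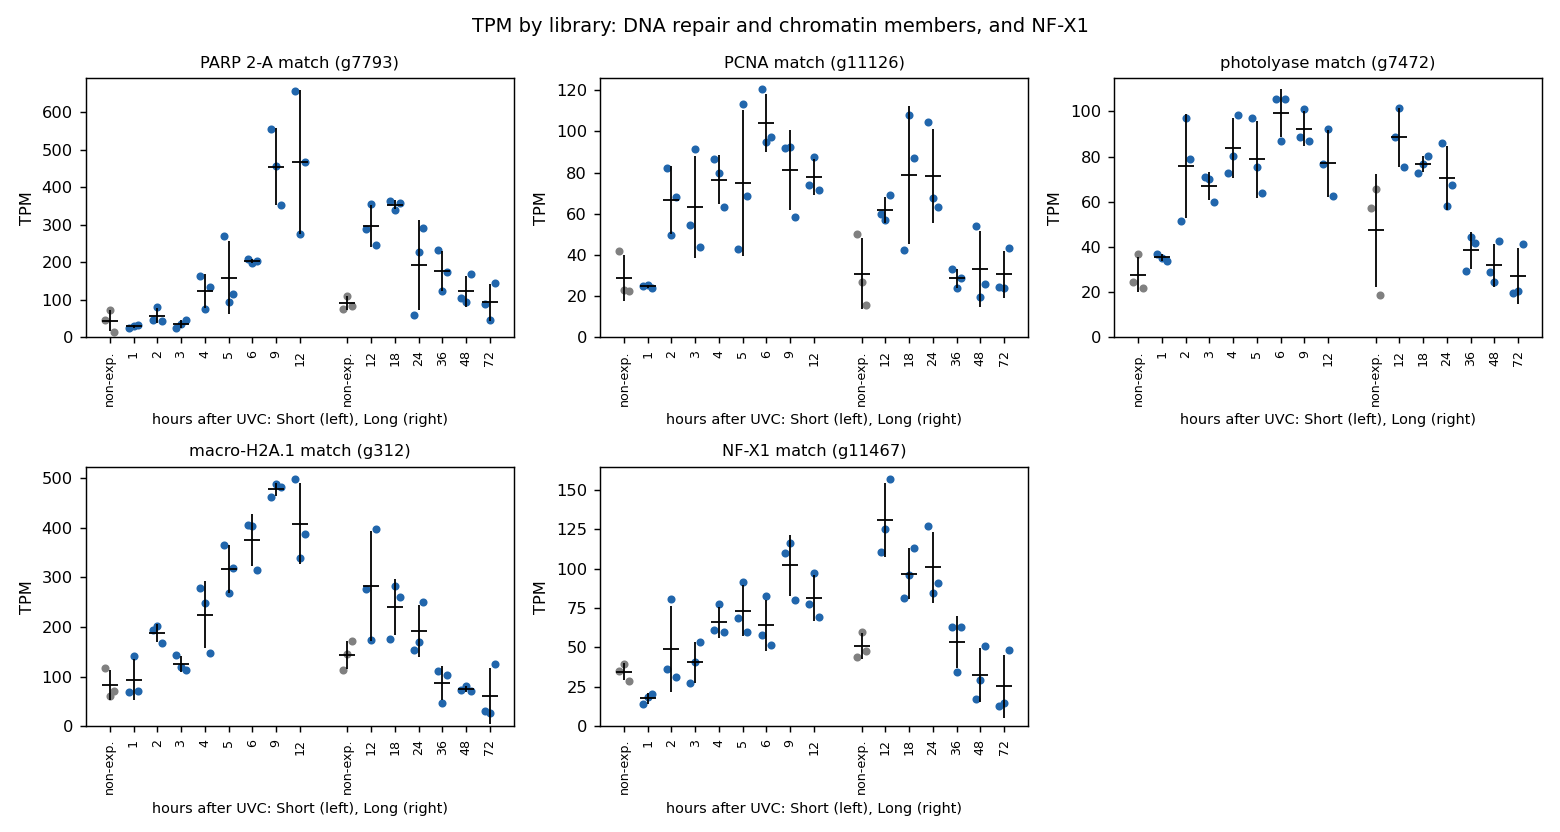
TPM (y axis, from 0) in each library by hours after UVC exposure for 4 repair and chromatin members and the NF-X1 match, Short course on the left and Long course on the right of each panel; points are libraries, grey is non-exposed, black marks are the mean and SD of 3. PARP 2-A stays at 24.3 to 80.3 TPM until 3 h and reaches 275 to 658 TPM at 9 and 12 h, whereas the photolyase match is at 34.0 to 96.9 TPM by 1-3 h already.

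Protein turnover contributed 4 of 32 listed ubiquitin and proteasome transcripts, beside 46 of all 561 named transcripts. All 32 had been picked by the study as higher in these libraries. Over the list, 3 were called higher in the rise and 23 passed the adjusted p (median difference 0.56), and in the fall 3 were called lower and 10 passed (median -0.68), with 0 past it the other way, against 13.2% of all transcripts past it in the rise and 4.15% in the fall. The ligase match arih1 (g2446.t1), which in animals works with cullin ligases, was the single member of the 4 called in the rise. It was at 55.9, 47.0 and 58.2 TPM in non-exposed Short animals, 156, 123 and 115 TPM at 9 h and 159, 145.5 and 142 TPM at 12 h. From 1-3 h to 4-6 h it went from 27.9 to 81.2 TPM (median 50.5) to 70.2 to 165 TPM (median 92.9), by 1.10 (SE 0.101, adjusted p = 3.57e-06), and fell under the fold limit with median scaling (0.96) or quantiles (0.84). Its fall was -0.84 (SE 0.286, adjusted p = 0.0863), not past the threshold.

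Peptide N-glycanase, which strips sugar chains from misfolded glycoproteins, was matched by g12708.t1, and it was among the most abundant members. It had 288, 205 and 242 TPM in non-exposed Short animals, 1110.5, 1453 and 1225 TPM at 9 h and 1588, 913 and 1637 TPM at 12 h. In the Long course the 12 h values were lower, 795, 665 and 651 TPM against 324, 360.4 and 311 TPM without exposure, and at 72 h it was 327, 361 and 624 TPM. The rise was 0.79 (SE 0.153, adjusted p = 0.00221) and the later change -0.22 (SE 0.178, adjusted p = 0.5), so no fall was detected for it between 18-24 h and 36-48 h. The ligase matches RNF113A (g10046.t1) and RNF170 (g601.t1, a ligase of the endoplasmic reticulum) changed by 0.56 (SE 0.228, adjusted p = 0.0917) and 0.79 (SE 0.154, adjusted p = 0.00221) in the rise. In the fall neither passed, at -0.59 and -0.51.

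Of the members' neighbours in that list, polyubiquitin g1328.t1, the precursor of ubiquitin itself, changed by 0.41 (SE 0.109, adjusted p = 0.0131) in the rise and -1.002 (SE 0.179, adjusted p = 0.00586) in the fall. The SUMO match g8886.t1 changed by 0.14 (SE 0.198, adjusted p = 0.681) and -0.32 (SE 0.192, adjusted p = 0.337), and the cullin ligase subunit RBX1 g5035.t1 by 1.01 (SE 0.199, adjusted p = 0.00241) and -0.64 (SE 0.281, adjusted p = 0.182). These 3 were the most abundant of the 28 listed transcripts that were not members, 20 of which passed the adjusted p in the rise and 10 in the fall. The calls of g1328.t1 and g5035.t1, close to the fold limit, were lost in 5 of 12 and 8 of 18 fits that left out a library, and both with median scaling (-0.91 and 0.88) or a pseudocount of 5.

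Autophagy and endolysosome transcripts gave 2 of 16, the WIPI4 match g9408.t1, which binds the lipid PI3P where autophagosomes form, and Rab-14 g3582.t1, a GTPase of endosome traffic. In the Short course g9408.t1 was at 73.9, 51.6 and 42.2 TPM without exposure and 112.9, 104 and 117 TPM at 9 h, and in the Long course at 42.3, 69.0 and 34.7 TPM and, at 12 h, 142, 168 and 191 TPM. It passed the adjusted p in the rise with 0.56 (SE 0.121, adjusted p = 0.00444), and not in the fall with -0.79 (SE 0.241, adjusted p = 0.0593). Rab-14 gave 0.49 (SE 0.188, adjusted p = 0.0763) and -0.32 (SE 0.193, adjusted p = 0.343). Of the whole list 5 passed in the rise and 1 in the fall, where 1 other was higher (13.2% and 4.15% of all transcripts). The most abundant of its other transcripts were the sequestosome-1 match g422.t1, an autophagy receptor set aside by name, with 0.71 in the rise (adjusted p = 0.0003), a further sequestosome-1 match g5512.t1 with 0.33 (adjusted p = 0.105) and Rab7 g7011.t1 with 0.50 (adjusted p = 0.00749).

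RNA-related members fell into ribosome biogenesis (3 of 19 listed) and transcription and RNA processing (2 of 24). Of the 25 listed ribosomal proteins and translation factors, 0 were members. The RtcB match g5473.t1, the ligase that rejoins spliced tRNA and, in animals, the XBP1 mRNA of the unfolded protein response, had 3 nearly equal libraries in each Short group at 9 and 12 h. Its level was 45.7, 46.4 and 51.9 TPM in non-exposed Short animals, 138, 139 and 142 TPM at 9 h and 158, 154 and 151 TPM at 12 h. In the rise it changed by 0.76 (SE 0.110, adjusted p = 0.000325) and in the fall by -0.96 (SE 0.215, adjusted p = 0.0154), both past the adjusted p, and both under the fold limit. From 18-24 h to 36-48 h its libraries went from 105 to 166 TPM (median 135) to 54.8 to 98.6 TPM (median 62.3) without overlap. The spliceosome protein GPKOW, g1710.t1, passed both as well, with 0.70 (SE 0.182, adjusted p = 0.0124) and -1.39 (SE 0.371, adjusted p = 0.034), and its call in the fall was lost in 9 of 12 fits that left out a library, with median scaling (-1.29) and with quantiles (-1.11).

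Within ribosome biogenesis, the RIO3 kinase g3476.t1, which acts in maturation of the small subunit, was at 88.1, 84.2 and 60.9 TPM in non-exposed Short animals and 202, 217 and 208 TPM at 9 h. It changed by 0.88 (SE 0.129, adjusted p = 0.000343) in the rise and -0.87 (SE 0.200, adjusted p = 0.018) in the fall. Initiation factor 6 (g8691.t1), which keeps the large subunit from joining early, gave 0.55 (SE 0.141, adjusted p = 0.011) and -0.85 (SE 0.242, adjusted p = 0.0449), and the snoRNP assembly factor BCD1 (g6205.t1) gave 0.74 (SE 0.207, adjusted p = 0.0185) and -1.01 (SE 0.330, adjusted p = 0.0755). Among the other listed transcripts, fibrillarin g8379.t1, the methylase of ribosomal RNA, was lower at the adjusted p and changed by -0.69 (SE 0.151, adjusted p = 0.00458) in the rise. CCD86 g13745.t1 changed by -0.50 (SE 0.279, adjusted p = 0.229) and NOP16 g6613.t1 by 0.11 (SE 0.162, adjusted p = 0.702). Of the 25 ribosomal proteins and translation factors, 10 were lower at adjusted p in the rise and 7 higher in the fall, with medians of -0.24 and 0.56 and 0 passing in the other direction (4.24% and 2.37% of all transcripts).

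In the transcription and RNA processing list 10 of 24 passed the adjusted p in the rise and 5 in the fall, in the members' directions (13.2% and 4.15% of all transcripts). Its most abundant other transcripts were the squid match g12827.t1 (0.54 (SE 0.102, adjusted p = 0.00202) in the rise), LSm4 g10799.t1 (0.23 (SE 0.115, adjusted p = 0.169)) and the splicing factor PHF5A g13156.t1 (1.18 (SE 0.242, adjusted p = 0.00308)), whose call was lost without Short 3 h replicate 2. Further members with a role in RNA, grouped after their names were seen, were DIS3L2 g11355.t1, an exonuclease for uridylated RNA, TBPL1 g11477.t1, WBP2 g7141.t1, IFRD1 g4925.t1 and the NF-X1 match. DIS3L2 was at 33.2, 14.4 and 14.5 TPM in non-exposed Short animals and 97.8, 117 and 95.3 TPM at 9 h, with 0.74 (SE 0.273, adjusted p = 0.0641) in the rise and -1.17 (SE 0.377, adjusted p = 0.0718) in the fall, neither past the threshold. Of these 5 genes, 4 passed in the rise and 1 in the fall (13.2% and 4.15% of all transcripts).

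Mitochondrial proteins gave 3 of 31 listed transcripts and, outside the lists, SelO, glutaryl-CoA dehydrogenase, GHITM and the alternative oxidase, the last pair named after their values were seen. The cysteine desulfurase match g6954.t1, which releases sulfur for iron-sulfur clusters, was at 54.6, 68.3 and 60.8 TPM in non-exposed Short animals and 209, 178 and 159 TPM at 9 h. It passed the adjusted p in the rise with 0.54 (SE 0.160, adjusted p = 0.025), and not in the fall with -0.71 (SE 0.230, adjusted p = 0.0738). The cluster assembly match ISCA1 (g1464.t1) and COQ7 (g5498.t1, an enzyme of ubiquinone synthesis) passed neither, and COQ7 was high early, with 80.7 to 249 TPM (median 199) at 1-3 h and 125 to 310.1 TPM (median 163) at 4-6 h, a difference of 0.03 (SE 0.190, adjusted p = 0.939). Its Long 12 h libraries of 109, 46.7 and 209 TPM overlapped the non-exposed ones of 21.9, 109.8 and 58.1 TPM, and for ISCA1 the later difference of 0.33 (SE 0.851, adjusted p = 0.855) turned to -0.75 without Long 24 h replicate 1, in which it was at 0.

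GHITM, a protein of the inner mitochondrial membrane matched by g13195.t1, was at 201, 229.8 and 205 TPM in non-exposed Short animals, 683, 757 and 589 TPM at 9 h and 768, 680.0 and 634 TPM at 12 h. It passed the adjusted p in both comparisons, with 0.56 (SE 0.101, adjusted p = 0.00137) and -0.65 (SE 0.186, adjusted p = 0.0463). The alternative oxidase g11363.t1, which hands electrons from ubiquinol straight to oxygen and is absent from vertebrates, passed neither, with 0.38 (SE 0.183, adjusted p = 0.157) and -0.28 (SE 0.423, adjusted p = 0.739). Over the 31 listed mitochondrial transcripts, 10 passed the adjusted p in the rise and 1 in the fall, against 13.2% and 4.15% of all transcripts. The most abundant that were not members, CHCHD2 g3585.t1, the ATP synthase subunit f match g4373.t1 and the chaperone BCS1 g2185.t1 (set aside by name), changed by 0.08, -0.16 and 1.53 in the rise. Their adjusted p values were 0.757, 0.431 and 9.94e-05, so the last alone passed.

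Redox defence and chaperones had 1 member each. The redox list gave 1 of 24, the thioredoxin-domain protein TXNDC17 (g11396.t1), at 124, 126 and 134 TPM in non-exposed Short animals and 379, 377 and 297 TPM at 9 h. It passed the adjusted p in the rise with 0.48 (SE 0.122, adjusted p = 0.0111), and in the fall it gave -0.66 (SE 0.358, adjusted p = 0.295). The most abundant other redox transcripts, thioredoxin-2 g11519.t1, glutathione S-transferase Mu g4017.t1 and peroxiredoxin-2 g6996.t1, gave 0.14, -0.28 and -0.15 in the rise, and 0.35, 0.95 and 0.66 from 18-24 h to 36-48 h, when the adjusted p were 0.296, 0.00326 and 0.0152. Over that interval 5 of the 24 were higher at the adjusted p (2.37% of all transcripts) and 0 lower. Of 6 listed chaperones, the NudC-domain protein g9181.t1 was the member, with 0.55 (SE 0.165, adjusted p = 0.0272) and -0.62 (SE 0.369, adjusted p = 0.342). The 9 listed tardigrade heat-soluble proteins, which protect cells in drying, held 0 members. Transcripts of this or any other family outside the study's annotation were not searched. Of the 9, 4 were lower and 1 higher at the adjusted p in the rise (4.24% and 13.2% of all transcripts). Over the interval of the members' fall 4 were called higher (1.49% of all).

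Among the members were a pair of membrane-shaping proteins of the endoplasmic reticulum, put together after the names were seen. Reticulon-4 (g2943.t1), which bends membrane into tubules, had the highest mean TPM of all members. It was at 348, 582 and 356 TPM in non-exposed Short animals, 1478, 1399.5 and 1285 TPM at 9 h and 1532, 1256 and 1360.4 TPM at 12 h. From 1-3 h to 4-6 h it changed by 0.68 (SE 0.112, adjusted p = 0.000697), and from 18-24 h to 36-48 h by -0.69 (SE 0.221, adjusted p = 0.0722), past the adjusted p only in the rise. Atlastin-2 (g10524.t1), the GTPase that fuses those tubules, changed by 0.83 (SE 0.146, adjusted p = 0.00113) and -1.11 (SE 0.208, adjusted p = 0.00656), and in the Long comparison it went from 115 to 179 TPM (median 147) to 49.4 to 87.9 TPM (median 70.1) with no overlap. That fall was not called with quantiles (-0.85).

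**Figure D5:**
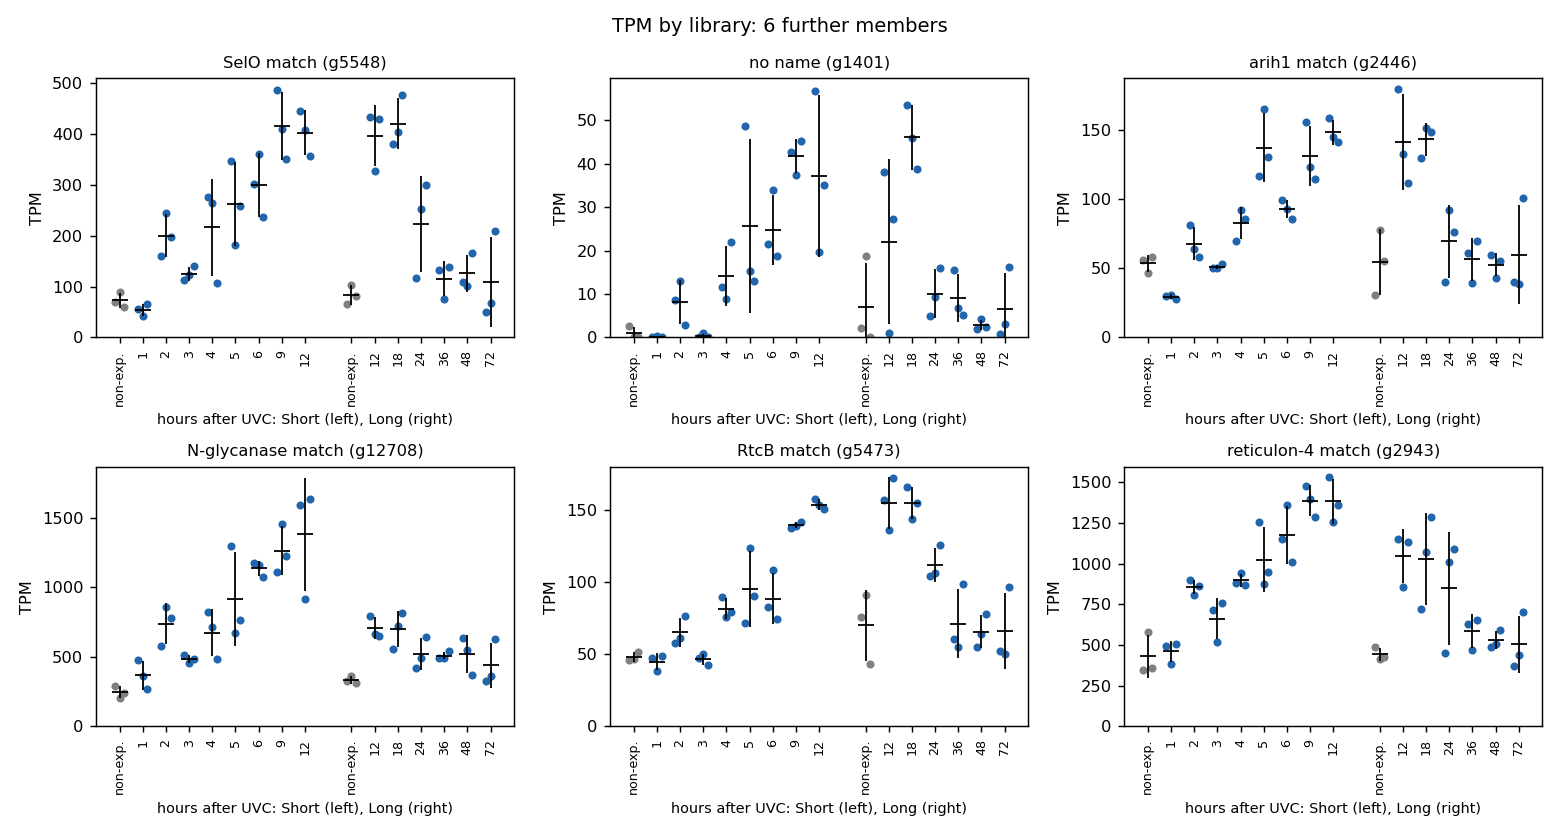
TPM (y axis, from 0) in each library by hours after UVC exposure for the SelO, arih1, N-glycanase, RtcB and reticulon-4 matches and the unnamed g1401, Short course on the left and Long course on the right of each panel; points are libraries, grey is non-exposed, black marks are the mean and SD of 3. At Short 9 h every library is above the non-exposed ones in all 6 panels, and the reticulon-4 match is at 1285 to 1478 TPM at that time.

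Membrane transporters and channels made up 7 members, also grouped after their names were seen: g8983.t1 (phosphate), g11428.t1 (the irritant channel TRPA1), g2495.t1 (organic anions), g2429.t1 (carcinine), g7014.t1 (GABA), g10151.t1 (choline) and g1289.t1 (monocarboxylates). From 1-3 h to 4-6 h 1 of the 7 passed the adjusted p, the GABA transporter match with 0.77 (SE 0.183, adjusted p = 0.00741), and 3 had values below 0. A share of 1 in 7 is close to the 13.2% of all transcripts that passed. From 18-24 h to 36-48 h 0 passed, with values from -0.67 to 1.17. The 7 other named members were enzymes and signalling proteins, g5596.t1, g10905.t1, g9989.t1, g5508.t1, g6843.t1, g8322.t1 and g2026.t1. The inositol monophosphatase match g10905.t1, named with g6843.t1 after their values were seen, was called in the rise with 1.10 (SE 0.153, adjusted p = 0.000275) but not with a pseudocount of 5 (0.99), median scaling (0.96), quantiles (0.79) or without Short 2 h replicate 2, and the glycerol kinase match g6843.t1 passed the adjusted p with 0.88 (SE 0.241, adjusted p = 0.0157). The isochorismatase-domain match g9989.t1 was called in the fall with -1.50 (SE 0.256, adjusted p = 0.00402), from 86.4 to 225 TPM (median 175) to 39.8 to 65.1 TPM (median 59.96), and did not overlap.

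Among the called members, the largest rise in the Short comparison was that of g1401.t1, from 0 to 12.9 TPM (median 0.394) at 1-3 h to 8.93 to 48.7 TPM (median 18.8) at 4-6 h, a difference of 3.16 (SE 0.343, adjusted p = 1.66e-05). After g7793.t1 came the unnamed g10735.t1 with 1.31 (SE 0.254, adjusted p = 0.00221), then g312.t1, and the unnamed g12619.t1 with 1.16 (SE 0.248, adjusted p = 0.00406). The call of g12619.t1 was lost without Short 4 h replicate 3 and with quantiles (0.87). In the Long comparison the largest falls were in g3103.t1 with -1.70 (SE 0.468, adjusted p = 0.0391), g9433.t1 with -1.62 (SE 0.402, adjusted p = 0.0248), g9989.t1, g8799.t1 with -1.49 (SE 0.237, adjusted p = 0.00287) and g4922.t1 with -1.42 (SE 0.363, adjusted p = 0.0278). Between 18-24 h and 36-48 h g8799.t1 went from 120.3 to 296 TPM (median 226) to 47.2 to 103 TPM (median 76.6), with no overlap, and it was called in all 12 fits that left out a library. The calls of g3103.t1, g9433.t1 and g4922.t1 were lost in 9, 5 and 5 of those fits, among them the fits without Long 36 h replicate 2 and without 48 h replicate 2. Median scaling also ended the calls of g3103.t1 (-1.60) and g4922.t1 (-1.33), quantiles that of g4922.t1 (-1.19), and a fit of the compared groups alone that of g9433.t1 (-1.62).

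The unnamed members were counted in the same comparisons. Of the 24 that were listed in the annotation without a Swiss-Prot match, 12 passed the adjusted p in the rise and 9 in the fall, all 9 with a call, and their medians were 0.49 and -0.998. Of the 30 that were not listed, 6 passed in the rise and 2 in the fall, with medians of 0.17 and -0.19, and they ranged from -1.07 to 3.16 in the rise. Of all transcripts 13.2% passed as higher in the rise and 4.15% as lower in the fall, so the shares of the 30 were near those of all transcripts. With a mean of at least 5 TPM required, those shares were 17.4% and 5.72%. The difference between the 24 and the 30 was not tested, and a listing means that the study had called the transcript higher in these libraries.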

How the data were processed

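Polyadenylated RNA of 30 whole animals per library had been sequenced, and the authors had quantified it with kallisto and deposited a table of TPM per transcript, which is relative to the other transcripts of the library and keeps no read depth, so the precision of a low value is unknown. bcl2fastq, FastQC, BWA and DESeq2 are also named in the submitters' processing notes. Counts were not used here, so the count test of the study's methods was replaced by limma 3.58.1 (R 4.3.3) on log2(TPM + 1), with a variance trend, all groups of a time course in the fit, transcripts with a mean of at least 1 TPM (12088 of 14532) and Benjamini-Hochberg adjustment. A difference on this scale understates the change of low transcripts. Scripts were tested on simulated data in which 200 of 12088 transcripts had been changed by 1.5 on the log2 scale. For the rise, 131 of the 200 were recovered and 31 calls were false. For the fall, 89 of the 200 were recovered and 44 calls were false. False calls thus made up a larger share than the limit on the adjusted p would allow, more so in the fall. Single calls are to be read with this in mind. All 48 columns matched a sample by title.

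The members, the lists and the tests were chosen with earlier results of these data known. Named were the 10 members with the highest lowest rise, up to 5 members and 3 abundant other transcripts of each list, the 5 called members with the largest difference in each comparison, and the genes nearest the limits; all further names, such as NF-X1, GHITM or reticulon-4, were chosen after their values were seen. Libraries of 1 group are biological replicates per the study's methods, but all time points of a replicate may share an exposure, so p-values measure the spread between these libraries. Alternatives were the pseudocount, the filter, scaling by median or quantiles, a replicate block, the groups in the fit, robust moderation and leaving out each library. Values of 1 DNA repair member are not reported here, although it stays in the counts.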

Additional observations from a re-analysis of the deposited data

How the results depend on the processing

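Leaving out each library in turn gave 10 to 12 members called higher in the rise and 283 to 620 transcripts called of all (428 with every library), 5 to 22 members called lower in the fall and 192 to 565 transcripts of all (465), and 56 to 99 of the 100 members taken again by the rule. For the rise, median scaling gave 6 members, quantile normalization 4 and no fold threshold 46, and the transcripts called were 196 with a pseudocount of 5 and 2109 with no fold threshold. With Short 4 h replicate 3 and 5 h replicate 2 both left out, an alternative chosen after seeing the data, 205 transcripts and 13 members were called. For the fall, quantile normalization gave 7 members, and the transcripts called were 307 with median scaling and 789 with no fold threshold. The cause of these changes was not tested, other than that the fold threshold by its construction removes transcripts. Median scaling shifted the median over all transcripts in the rise from 0.09 to -0.05, and that of the members from 0.52 to 0.39. Libraries with the same replicate number did not deviate together (correlations from -0.08 to 0.04). A shared exposure was not tested by this, since the numbers need not follow the exposures. A replicate block gave 11 members in the rise and 20 in the fall. With it, 216 transcripts were called higher and 206 lower in the rise, and 169 and 253 in the fall.

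Among the genes given with a test, each of which was refitted under every alternative, the direction turned only where no call had been made. In the rise g5498.t1 was at -0.10 with median scaling, -0.089 with quantiles and -0.078 to 0.11 with a library left out, and over such fits g4744.t1 at -0.13 to 0.83, g3103.t1 at -0.41 to 0.15, g8886.t1 at -0.020 to 0.27, g3585.t1 at -0.052 with median scaling, g6613.t1 at -0.027 with median scaling and -0.085 with quantiles, and g1422.t1 at 0.085 without both libraries named above. In the fall g1422.t1 was at -0.25 with quantiles and -0.39 to 0.35 with a library left out, g10514.t1 at -0.41 to 1.00, g4373.t1 at -0.025 with quantiles and -0.022 to 0.20, g13156.t1 at -1.10 to 0.37, g4744.t1 at -0.55 to 0.90 and g1464.t1 at -0.75 to 0.88. TPM keeps no depth, so the error of single low values cannot be given.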
